A study of Ascaris suum with 9 samples.

Results

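How larvae of Ascaris suum responded to an extract of red clover was described in 6 RNA sequencing libraries: 3 of larvae kept for 3 hours with extract at 200 µg/mL and 3 of larvae kept with solvent. Genes were included when they had 10 or more counts in at least 3 of these 6 libraries, which 14897 of the 17974 genes in the deposited table did. Another 3 libraries, exposed to 100 µM biochanin A for 3 hours, entered the statistical model and is shown only where it places a value. All libraries were made from total RNA of whole larvae of this parasitic roundworm of pigs. The solvent, the larval stage, the number of larvae in each library and the composition of the extract are not stated in the labels. The labels also do not say whether replicates are separate cultures of larvae, so the p-values speak of the spread among these libraries, which may be technical.

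Red clover is a forage legume that makes isoflavones, phenolic plant compounds of which biochanin A is a methylated member. An extract holds many plant compounds at once, so the comparison asks what larvae do on contact with the whole mixture. Ascaris larvae hatch in the host gut and migrate through liver and lungs. Nematodes commonly answer plant toxins by changing transcripts of detoxification enzymes, transporters and stress proteins. The deposited table pairs no identifier with a gene name or product, so none of those groups could be examined, and neither could tissue markers of the larva. The results therefore describe how many genes moved, how far, at which levels and in which libraries. In whole larvae, fewer cells of a type and less RNA per cell cannot be told apart.

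The 6 libraries held 45842836 to 50682988 counts, so 1 CPM (counts scaled to library size) stood for 45.8 to 50.7 reads before scaling. Tested genes took 99.98% or more of every library. Of the 3077 genes left out, 797 had no count in any of the 6 libraries. The groups did not overlap along the first principal component of log2 CPM, which carried 37.5% of the variance: controls lay between -57.9 and -12.9, extract libraries between 20.2 and 45.3. Extract replicate 1 lay farthest from the controls on it, and extract replicates 2 and 3 close together.

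Extract changed 2629 of 14897 genes, 17.6% of those tested, at an adjusted p below 0.05 (quasi-likelihood test of edgeR). Higher levels with extract were called for 1415 genes (9.50%) and lower levels for 1214 (8.15%). The typical change was small, with a median of 1.35-fold among rises and 1.43-fold among falls. Rises under 1.2-fold numbered 252, and 653 lay between 1.2-fold and 1.5-fold. Between 1.5-fold and 2-fold there were 286 rises, between 2-fold and 4-fold 192, and past 4-fold 32. The falls held 133, 570, 345, 144 and 22 genes in the same 5 steps. Changes under 1.2-fold made up 17.8% of the rises and 11.0% of the falls. Called genes had more counts behind them than the rest: the median control level was 61.9 CPM for rises and 37.5 CPM for falls, against 15.0 CPM for genes that were not called. The standard error of the log2 fold change had a median of 0.08 for rises, 0.11 for falls and 0.15 for genes that were not called.

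**Figure D1:**
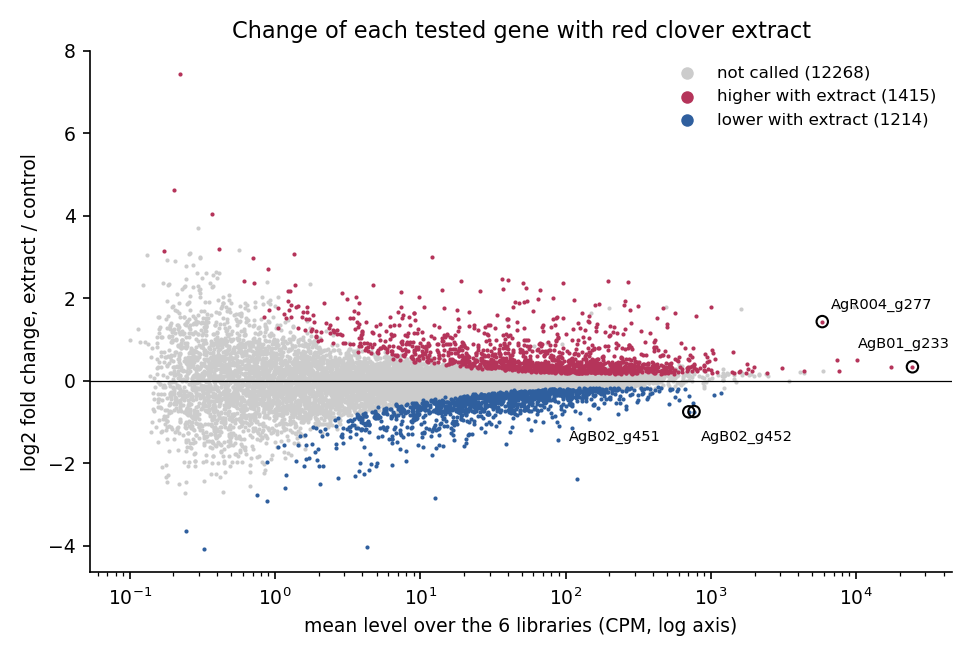
Each point is 1 of 14897 tested genes, placed by its mean level over the 3 control and 3 extract libraries (CPM, log axis) and its log2 fold change, extract over control. Genes called at an adjusted p below 0.05 are coloured (1415 higher, 1214 lower), and open circles mark the 2 largest gains and 2 largest losses in level among called genes whose groups did not overlap. Small changes were called mainly at high levels, where the error is small.

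How the calls divide into rises and falls depended on the scaling of the libraries. TMM, the scaling used, assumes that most genes keep their level. When only the library totals were used, log2 fold changes moved by -0.15 in the median, which left 739 rises and 2935 falls. DESeq2 size factors gave 1451 higher and 1182 lower. No gene called under TMM was called in the opposite direction under either scaling. Called in the same direction under all 3 scalings were 738 rises and 1182 falls, 73.0% of the 2629 calls.

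Most calls separated the groups completely. All 3 extract libraries lay above all 3 controls for 1297 of the 1415 rises, and below them for 1193 of the 1214 falls. Across all tested genes the groups did not overlap for 31.8%, with extract above for 14.9% and below for 16.9%. Since separation and the call rest on the same libraries, these counts describe the calls and add no support to them. A further 921 genes lay wholly above the controls and 1323 wholly below without passing the test.

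The genes that rose took a larger part of each library. They held 26.1%, 26.5% and 25.9% of the counts in control replicates 1, 2 and 3, while the extract libraries gave 31.8%, 32.2% and 32.3% in that order. The genes that fell held 9.27%, 9.13% and 9.38% in control and 6.06%, 6.31% and 6.56% with extract. These shares are plain fractions of the library and need no scaling, but the genes were chosen for this difference, so no test was applied. Within each group the 3 libraries lay within 0.664 percentage points of each other on both shares. Among the 1415 called rises the gain was uneven, though no single gene carried most of it. Of their summed rise of 86710 CPM, the first gene carried 6.56%, the first 10 carried 29.6% and the first 67 carried 50%. AgR002_g269 and AgR002_g270 were not called and are outside this sum, with larger mean gains (10568 and 8271 CPM) than any gene in it. The summed fall of 20965 CPM was spread more widely, and took 187 genes to reach 50%. A gain of over 100 CPM was seen for 152 called genes and a loss of that size for 17. Unlike the shares, these sums and counts use TMM-scaled CPM, so the balance of gain and loss in them depends on the scaling.

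Among called genes whose groups did not overlap, the largest gain in level belonged to AgB01_g233, which alone held over 2% of the counts in every library. It stood at 21690, 21295 and 21716 CPM in control and at 26378, 27732 and 27668 CPM with extract. Extract exceeded control in every library, with extract replicate 1 the lowest of them. The rise was small in ratio, a log2 fold change of 0.34 ± 0.06 (SE), and passed at an adjusted p of 0.00079 in edgeR's quasi-likelihood test. It depended on the scaling in size: under library totals the log2 fold change was 0.19, with an adjusted p of 0.019. The biochanin A libraries were higher again, at 34588 ± 114 CPM (SD, n = 3), and extract lay below them by a log2 difference of -0.34 ± 0.06. The adjusted p of that difference was 0.0013 in a contrast that called 15.0% of all tested genes. The next identifier, AgB01_g234, also rose, from a mean of 15361 CPM in control to 19349 CPM with extract. Its log2 fold change was 0.33 ± 0.06 (SE), with an adjusted p of 0.00073 in edgeR's quasi-likelihood test. Whether reads were shared between these genes was not tested, so the rises may not be independent measurements.

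AgR004_g277 gained almost as much and changed far more in ratio. Its levels were 3179, 3064 and 3231 CPM in control and 8477, 8282 and 8836 CPM with extract. No extract library came near a control, and the spread within either group was small beside the gap. The log2 fold change was 1.43 ± 0.06 (SE), or 2.70-fold, with an adjusted p of 3.2e-12 in edgeR's quasi-likelihood test. Library totals gave 1.29. With biochanin A the same transcript reached 13165 ± 417 CPM (SD, n = 3), which exceeded extract (log2 difference, extract minus biochanin A, -0.63 ± 0.06, adjusted p = 2.7e-06). Levels of different genes are compared here in reads only, since gene lengths were not used.

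By the same rule the largest losses belonged to AgB02_g451 and AgB02_g452, whose identifiers follow each other. AgB02_g451 stood at 872.8, 1031 and 976.8 CPM in control and at 534.9, 613.2 and 568.6 CPM with extract. AgB02_g452 stood at 804.7, 942.2 and 906.8 CPM in control and at 493.4, 563.3 and 516.9 CPM with extract. Every extract library was below every control for both, and control replicate 1 was the lowest control in both. The log2 fold changes were -0.75 ± 0.07 for AgB02_g451 (adjusted p = 1.2e-07) and -0.75 ± 0.07 for AgB02_g452 (adjusted p = 8.1e-08). Both kept a nearly fixed ratio of counts, 1.08 to 1.11 over all 9 libraries. Whether reads were counted for both genes, or split between near-identical copies, was not tested, so the 2 falls may not be independent measurements. Unlike in the genes with the largest gains, biochanin A levels lay between control and extract: 681.3 ± 17.9 CPM for AgB02_g451 and 613.9 ± 14.2 CPM for AgB02_g452 (SD, n = 3). Extract was lower than biochanin A by a log2 difference of -0.25 ± 0.07 in AgB02_g451 (adjusted p = 0.016) and -0.23 ± 0.07 in AgB02_g452 (adjusted p = 0.026).

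**Figure D2:**
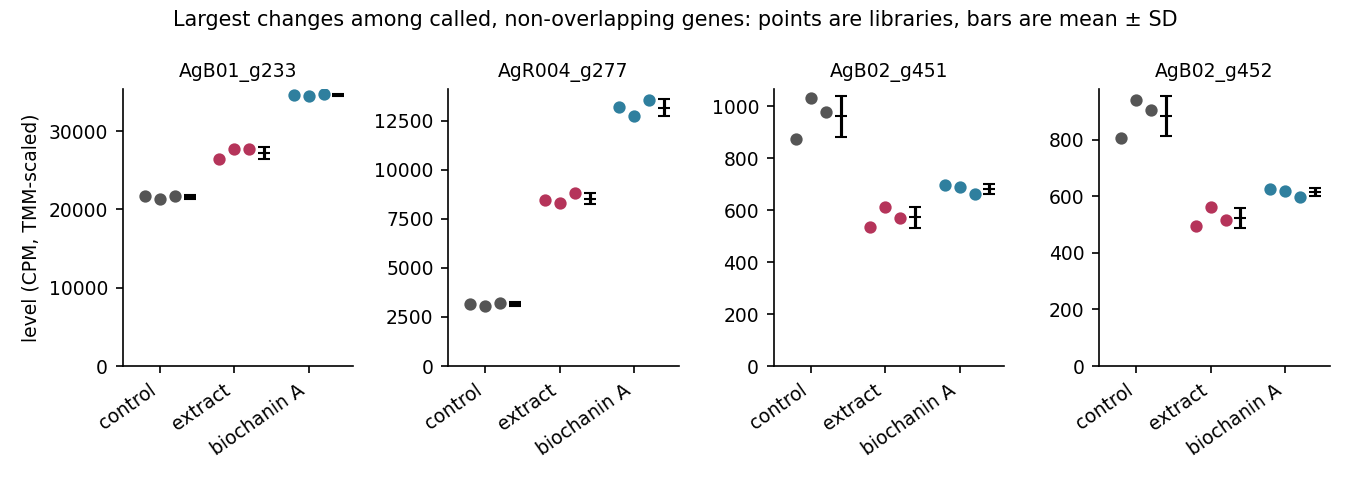
Level of the 2 genes with the largest gain and the 2 with the largest loss among called genes whose groups did not overlap (CPM, TMM-scaled, axis from 0), with 1 point per library in replicate order and the mean ± SD of 3 libraries beside each group. AgB01_g233 and AgR004_g277 are highest with biochanin A, while AgB02_g451 and AgB02_g452 are lowest with extract; no extract library overlaps a control.

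Transcripts present in 1 group only were nearly absent at this depth. AgE13_g011, picked out after its values were seen, was the only gene with 0 counts in all 3 controls and at least 10 in every extract library. Its counts were 20, 26 and 18 in extract replicates 1, 2 and 3 and 14, 20 and 2 in biochanin A replicates 1, 2 and 3. Set against a floor of 3 counts over the control group, the extract mean, scaled by library totals, was 20.3-fold higher. The error of the extract counts is not part of this value. No p is given, since the gene passed the filter only through the extract libraries and was picked for this pattern. In the other direction, no gene had 0 counts in all extract libraries and 10 or more in every control. The floor covers counting error in the controls only, and reads without molecular identifiers are not independent molecules.

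The balance of rises and falls changed with the level of a gene in control. The tested genes were divided into 5 equal classes by mean control level. The lowest class reached up to 1.96 CPM and the highest began at 77.9 CPM. In the highest class 603 genes rose and 312 fell, so 65.9% of calls were rises (95% Wilson interval 62.8% to 68.9%, which covers counting error only, since genes are not independent). In the middle class, from 10.9 to 32.6 CPM, 241 rose and 356 fell, or 40.4% rises (36.5% to 44.4%). The class below it had 175 rises against 181 falls and the class above it 330 against 358. Rises thus outnumbered falls clearly at the top, and falls outnumbered rises in the middle. The lowest class had only 73 calls, 66 of them rises. That last balance turned when biochanin A libraries, which are no part of the contrast, set the classes: 18 rose and 45 fell in the lowest class, and the highest class had 76.9% rises. The control libraries both set the classes and enter the contrast, and the part of this in the pattern was not tested. A gene with few control counts could also pass the filter only through high extract libraries. The balance of the lowest class is therefore not read as a result.

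Under scaling by library totals falls were in the majority in every class but the lowest: 257 rises and 891 falls in the highest class, or 22.4% rises, and 151 and 760 in the middle class, or 16.6%. The direction of the highest class therefore depends on the scaling. Its share of rises was above that of the middle class under TMM, DESeq2 size factors (67.5% against 41.1%) and library totals. Under library totals it did not stand out from all classes, since the class just below the middle had 25.8% rises and the lowest class 74.0%.

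**Figure D3:**
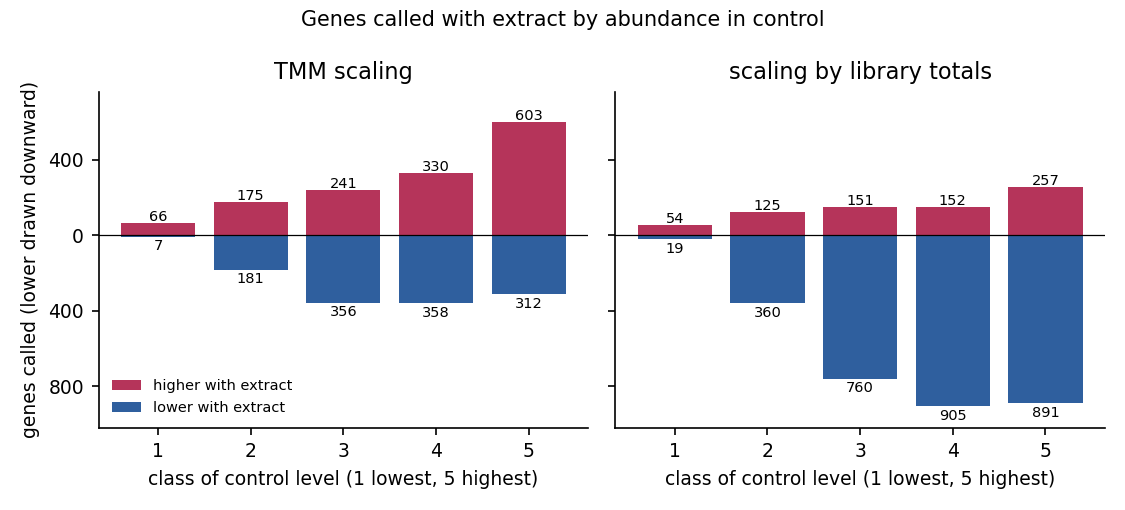
Number of genes called higher (upward) and lower (downward) with extract in 5 equal classes of mean control level, from the lowest (1) to the highest (5), under TMM scaling on the left and scaling by library totals on the right. The highest class has 603 rises and 312 falls under TMM and 257 and 891 under library totals.

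Counts were also more concentrated in a few transcripts with extract. The 10 most abundant genes of each library held 8.53%, 8.80% and 8.81% of the counts in control replicates 1, 2 and 3, and 13.5%, 11.98% and 10.2% in extract replicates 1, 2 and 3. All extract libraries exceeded all controls, but they spread over a wider range than the gap between the groups. The 1000 most abundant genes held 49.6 ± 1.0% in control and 53.8 ± 1.6% with extract (SD, n = 3 each). For the 100 most abundant the difference was 3.95 percentage points, and it was 2.54 points without the 7 genes that varied most among extract libraries. Without extract replicate 1 it was 3.04 points. An exact permutation test, two-sided over 3 against 3 libraries, gave p = 0.1 for the 10, 100 and 1000 most abundant genes and for the 100 without the 7 genes; no smaller p is possible in this design.

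The 3 extract libraries were not equally alike. Among 10376 genes of at least 5 CPM with extract, replicates 2 and 3 differed by over 1.5-fold for 59 genes (0.569%). Replicate 1 differed that far from replicate 2 for 284 genes (2.74%) and from replicate 3 for 343 (3.31%). By this count replicates 2 and 3 were the closest pair of the series: pairs of control libraries differed for 261 to 590 genes and pairs of biochanin A libraries for 161 to 234. By chi-square per degree of freedom, which gives abundant genes more weight, the order was different: extract replicates 2 and 3 reached 49.7, above every control pair (17.1 to 35.9) and every biochanin A pair (17.6 to 23.6). Extract replicate 1 reached 36.5 with replicate 2 and 124.1 with replicate 3, so by this measure every extract pair exceeded every control pair. By the range per gene, extract as a group was not more variable than control at these levels. The median range of log2 CPM over the 3 libraries was 0.19 with extract and 0.23 in control, and 50 genes with extract against 97 in control had a range over 1. A different picture held at the extreme, where 7 genes with extract, and none in control or biochanin A, had a range over 2.

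**Figure D4:**
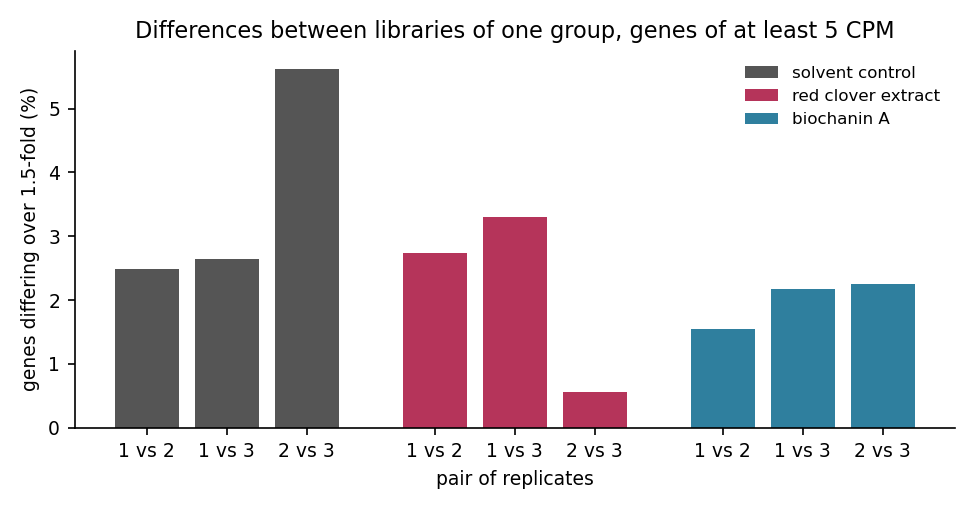
Percentage of genes of at least 5 CPM whose levels differed by over 1.5-fold between 2 libraries of one group, for each of the 9 pairs. By this measure extract replicates 2 and 3 are the most alike (0.569%) and control replicates 2 and 3 the least (5.62%).

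Replicate 1 was the library that stood apart for most genes that varied with extract. Of 497 genes of at least 5 CPM whose extract range passed 1.5-fold, it was farthest from the median library for 355, against 49 for replicate 2 and 93 for replicate 3. It lay more than 1.5-fold above both other extract libraries for 49 genes and more than 1.5-fold below both for 104. Replicate 2 did so for 4 and 3 genes, and replicate 3 for 8 and 21. Single control libraries stood apart in this way for 32, 111 and 133 genes (replicates 1, 2 and 3), so the 153 of extract replicate 1 are not far above the least alike controls. The genes that were low in replicate 1 were mostly low against the controls too: 94 of the 104 lay below all 3 controls. For 35 of the 104 both other extract libraries lay inside the control range. Over all tested genes, replicate 1 lay below all 3 controls for 33.7%. The 104 were picked for a low value in replicate 1, so these counts are a description. Of the 153 genes high or low in replicate 1 alone, 19 were called with extract, or 12.4%, against 17.6% of all tested genes and 23.1% of the 10376 at this level. Their levels were modest, with a median of 8.27 CPM for the 49 and 9.78 CPM for the 104. A count was found for fewer genes in replicate 1 (15693) than in replicates 2 (16520) and 3 (16213), while the controls ranged from 15492 to 16239. Replicate 1 was also the shallowest extract library, with 46236453 counts against 50682988 in replicate 2 and 50260353 in replicate 3. The part of depth in this difference was not tested.

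Replicate 1 was also most often the highest extract library among called rises and the lowest among called falls. The median log2 difference from the control mean over the 1415 rises was 0.49 in replicate 1, 0.44 in replicate 2 and 0.42 in replicate 3. Replicate 1 was the highest extract library for 683 of these genes, replicate 2 for 336 and replicate 3 for 396. The lowest extract library among the rises was most often replicate 3, for 562, against 434 for replicate 2 and 419 for replicate 1. For the 1214 falls the medians were -0.51, -0.48 and -0.51. Replicate 1 was the lowest extract library for 502 of them, replicate 2 for 316 and replicate 3 for 396. It was also most often the highest extract library among the falls, for 426 against 399 in replicate 2 and 389 in replicate 3. Without replicate 1, extract was called to change 2142 genes, 1160 higher and 982 lower, and 1968 of the 2629 calls were made again in the same direction. Leaving out replicate 2 cost most calls, with 1909 left, and leaving out replicate 3 left 2292. Calls with each of the 3 extract libraries left out in turn held together for 894 rises and 682 falls.

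Extract replicate 3 accounted for most of the overlap between groups among the called rises. Of the 118 rises with overlapping groups, extract replicate 3 alone reached into the control range for 98, replicate 1 alone for 13 and replicate 2 alone for 5. These 98 were well expressed and changed little, with a median control level of 160.4 CPM and a median of 1.23-fold. In 92 of the 98 the highest control was control replicate 2. Their median log2 difference from the control mean was 0.46 in extract replicate 1, 0.32 in replicate 2 and 0.14 in replicate 3. For these 98 the extract libraries lay farther apart than for the rises as a whole; the 98 were picked for a low value in replicate 3, so this is a description. Of the falls, only 21 overlapped, and no single extract library accounted for more than 8 of them alone.

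The 7 genes with the widest extract range all ran the same way: highest in replicate 1, intermediate in replicate 2 and at control levels in replicate 3. They were AgR002_g269, AgR002_g270, AgR002_g271, AgR002_g272, AgR014X_g236, AgB09X_g026 and AgR022_g004. The identifiers that begin with AgR002 follow each other. Whether reads were shared between near-identical copies was not tested, so the 7 genes may not be independent measurements. Their log2 ranges over the extract libraries were 2.34 to 2.76, compared with 0.46 to 0.89 in control; the biochanin A ranges were 0.88 to 1.5. The widest range just under the limit of 2 was 1.93. Replicate 1 exceeded replicate 3 by 5.07-fold to 6.76-fold and replicate 2 exceeded it by 2.83-fold to 3.64-fold. In replicate 3 all 7 were at or below the highest control. Among the biochanin A libraries, replicate 1 was the highest for 6 of the 7. Their summed share of a library was 4.98% in extract replicate 1, 2.91% in replicate 2 and 0.884% in replicate 3, and 0.804% to 1.2% in control. In mean level AgR002_g269 gained 10568 CPM and AgR002_g270 gained 8271 CPM, more than the 5692 CPM of AgB01_g233. None of the 7 passed the test against control, with adjusted p-values of 0.12 to 0.18 in edgeR's quasi-likelihood test. The range itself chose these genes, so it is given as a description only.

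AgR002_g272 had the widest range of all. It stood at 198.5, 188.5 and 272.7 CPM in control replicates 1, 2 and 3, and at 1368, 721.0 and 202.4 CPM in extract replicates 1, 2 and 3. Extract replicates 1 and 2 were far above the controls and replicate 3 lay among them. The log2 fold change of 1.80 ± 0.73 (SE) therefore rests on extract replicates 1 and 2 (adjusted p = 0.16 in edgeR's quasi-likelihood test). Among biochanin A libraries it ranged from 229.8 CPM in replicate 2 to 650.4 CPM in replicate 1.

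The widest ranges among genes highest in the other extract libraries were narrower and belonged to transcripts of low level. AgB04_g095 had the widest range among genes highest in replicate 2, at 2.82, 7.45 and 7.04 CPM in replicates 1, 2 and 3 and 4.11 to 5.11 CPM in control. AgR032_g026 had the widest range among genes highest in replicate 3, at 3.73, 9.42 and 14.3 CPM against 7.19 to 12.9 CPM in control. In both, replicate 1 was the lowest extract library and lay below every control, while neither gene was called (adjusted p = 0.49 for AgB04_g095 and 0.88 for AgR032_g026).

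**Figure D5:**
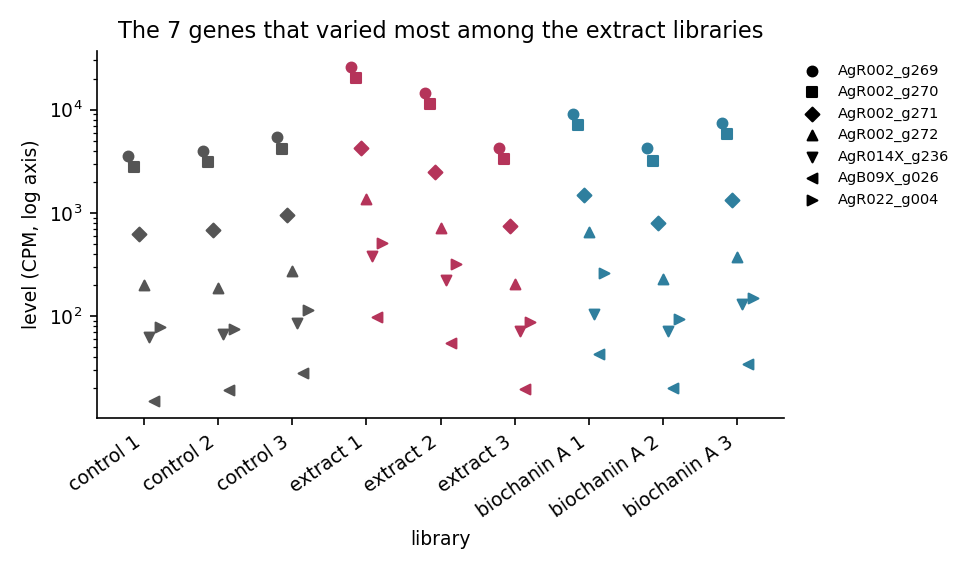
Level (CPM, log axis) of the 7 genes with a log2 range over 2 among extract libraries, 1 symbol per gene, in each of the 9 libraries. All 7 are highest in extract replicate 1 and lie at or below the highest control in extract replicate 3.

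A part of the calls was made again in every alternative fit. Counting only genes called in the same direction under the 3 scalings, under DESeq2 and limma voom, and without each of the 6 libraries in turn, 686 rises and 663 falls were left, 51.3% of the 2629 calls. The same number was left over all 19 fits, which add the other filters, the 6 libraries alone, the replicate block, the fit without the 7 genes and those without each biochanin A library. Stricter thresholds were not part of this count. Their median changes were 1.62-fold and 1.53-fold. They included 189 of the 224 rises past 2-fold and 122 of the 166 falls past 2-fold. All 663 of these falls and 682 of these 686 rises separated the groups without overlap. The fits share most of their libraries, so these counts say nothing about new larvae.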

How the data were processed

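The deposited table holds raw counts of reads per gene for 9 libraries, with no normalization by the authors; columns were matched to samples by the library names in the labels, and 0 columns had no sample. The sheet name gives the annotation as WBPS19. Aligner, counting tool, strandedness and the treatment of multiply mapped reads are not stated in those sources, so overlapping, antisense and near-identical genes are uncertain. Per the submitters' processing notes, DESeq2 was used, with no role or version given. Labels give no sequencing batch or date.

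Genes with at least 10 counts in at least 3 of the 6 control and extract libraries were tested. Counts were scaled with TMM and fitted in edgeR 4.0.16 (R 4.3.3) by the quasi-likelihood method with robust dispersion, in one model of 3 groups with 6 residual degrees of freedom. P-values were adjusted by Benjamini-Hochberg over all tested genes, with a threshold of 0.05. Standard errors are the log2 fold change divided by the square root of F. CPM values use TMM library sizes; log2 CPM has a prior count of 2. Permutation tests used scipy 1.17.1. DESeq2 1.42.0 and limma 3.58.1 were alternatives. The workflow was tested on simulated data with far fewer changed genes than were called here, in directions drawn at random. That test does not cover the choice of scaling.

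No 2 libraries of one group agreed within sampling noise (chi-square over its degrees of freedom, 17.1 to 124.1), so none was treated as a repeat deposit of another; this does not show separate cultures. Named genes are the 2 with the largest rise and the 2 with the largest fall in mean CPM among called genes whose groups did not overlap, and, for each extract library, the gene of at least 5 CPM highest in it with the widest log2 range; the 7 genes past a log2 range of 2 were a list for an alternative. The comparison, lists and rules were chosen with earlier results of these data known. Lists by product name were not applied, since identifiers have no products here.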

Additional observations from a re-analysis of the deposited data

How the results depend on the processing

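Of 2629 genes called, with 1415 higher and 1214 lower, library totals gave 739 higher and 2935 lower. An adjusted p below 0.01 left 1570 (884 higher, 686 lower) and a log2 fold change above 1 left 390 (224 and 166), as stricter limits must. Fits without 1 library gave 1909 to 2784 calls, 1050 to 1571 higher and 859 to 1213 lower. Counts stayed within 1.5 times of those reported with DESeq2 (3086), limma voom (2684), DESeq2 size factors, no filter, filterByExpr, the 6 libraries alone (2173), and without the 7 most variable genes. With a replicate block 2616 genes were called; deviations of libraries with the same number correlated at -0.049 to 0.016, so the numbers gave no sign of a pairing, and no control library correlated best with the extract library of its own number. The share of rises in the highest class was 76.9% with classes by biochanin A, 71.8% by the mean of 6 libraries and 22.4% under library totals; in the middle class it was 35.8%, 36.3% and 16.6%. The cause of these moves was not tested. The difference in the share of the 100 most abundant genes was 3.04 to 5.0 points without 1 library. Without a minimum level, 2395 genes in control and 1806 with extract had a log2 range over 1, against 97 and 50; most of these have few counts, which is where depth limits the comparison. All 72 alternative values of the 4 named rises and falls kept their direction and call.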

Other observations

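Called genes were found under many identifier prefixes (the part of an identifier before "_g", whose meaning the files do not state). The 48 prefixes with at least 100 tested genes held 11744 of the 14897 tested genes, and smaller prefixes were left out. Among these 48 the share called with extract ran from 11.5% to 28.6% with a median of 18.3%, beside 17.6% over all tested genes. Each of the 48 held both rises and falls. No test was made across prefixes. Of the 3077 genes that did not pass the filter in control and extract libraries, 64 had 10 or more counts in every biochanin A library.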
